A study of Mus musculus with 16 samples.

Results

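The comparison described here is that of TM4 cells transfected with the mutant gdf6Y del9 plasmid with TM4 cells transfected with the empty vector (EV). TM4 is a mouse cell line of Sertoli origin, from the somatic support cells of the testis. Each well received 2.5 µg of plasmid, either pcDgdf6Ydel9 (5 samples, del9) or pcDNA3.1-HA (6 samples, EV), and RNA was taken 24 h later. Both groups thus share the plasmid mass and the transfection reagent and differ in the insert. The methods do not say whether the backbone is the same. Other differences between the plasmids, such as size or preparation, cannot be told apart from the insert. The insert codes for Gdf6Y of the killifish Nothobranchius furzeri with an in-frame deletion of 9 bp in the prodomain. The level of this fish transcript was not analysed here, and mouse Gdf6 had 0 reads in all 11 samples. The 11 samples are those of the 16 in the series whose labels read EV or del9. The comparison covers the 12590 of 56748 counted genes whose counts averaged 10 or more over them. The remaining 5 samples carried unmutated gdf6Y and are used only where the 2 inserts are set side by side. The labels do not say whether replicates came from separate cultures, so p-values measure the spread between these samples, which may be technical.

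Gdf6 belongs to the bone morphogenetic protein (BMP) branch of the TGF-beta family. Such ligands are made in the endoplasmic reticulum (ER) as precursors, whose prodomain helps the mature part to fold and is then cut off. The released dimer binds serine/threonine kinase receptors, which phosphorylate Smad1, Smad5 and Smad9, and these switch on targets such as the Id genes and the inhibitory Smads. Plasmid DNA in the cytosol is itself a stimulus: DNA and RNA sensors lead to type I interferon, which acts on the interferon-stimulated response element of its target genes.

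Between 21486850 and 25844048 reads were counted on genes per EV sample and between 24608410 and 26071045 per del9 sample. Of 14 Sertoli cell markers, 6 passed the mean count of 10, and Wt1 and Dmrt1 had no read. Most reads of the list were those of Gata4 and Kitl (EV medians of 828 and 715), and Sox9 had an EV median of 42.5. The EV medians of Amh, Nr5a1, Fshr and Cldn11 were 5, 1, 0 and 0. The summed counts of the list ran from 1500 to 1820 with EV and from 1575 to 1833 with del9. Summed counts of the germ cell, Leydig cell, macrophage, endothelial and epithelial lists did not exceed 70 reads in any sample. The fibroblast list, through Col1a1 and Col1a2, ran from 106733 to 133882 reads with EV and from 114962 to 129172 with del9. Its member Pdgfra fell by 0.14 on the log2 scale. In such bulk samples fewer cells with a transcript and less of it per cell cannot be told apart.

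With del9, 1043 genes rose and 1070 fell (edgeR's quasi-likelihood test, Benjamini-Hochberg adjusted p below 0.05), which is 8.28% and 8.5% of the genes tested. The changes were small. The median log2 fold change was 0.12 among genes that rose and -0.15 among genes that fell, against -0.004 over all genes tested, and 4 of the former and 47 of the latter passed 1.5-fold. In 513 genes (4.07%) every del9 sample lay above every EV sample, and in 437 (3.47%) every del9 sample lay below. Functions were described with 50 gene lists, 48 of which had at least 8 tested members; the 5 with the highest and the 5 with the lowest median are given in detail. Leaving out del9 replicate 3 lowered the calls to 613 higher and 610 lower, and leaving out del9 replicate 5 to 672 and 673. Genes of interferon, of giant scaffold proteins, of Notch signaling and of long noncoding RNAs had the lowest medians, and those of ribosome production, mitochondrial ribosomes, DNA replication and the immediate early response the highest.

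**Figure D1:**
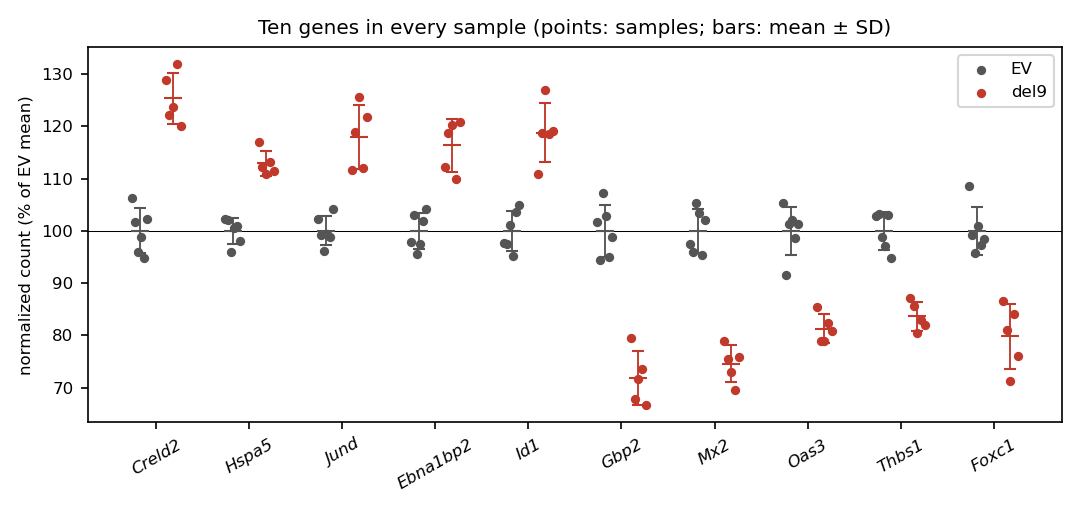
Normalized counts of 10 genes in each of the 6 EV samples (grey) and 5 del9 samples (red), as a percentage of the gene's EV mean; points are samples and bars are the mean ± SD. In each of the 10 genes the del9 samples lie on one side of all EV samples, with changes of 12.9% for Hspa5 to 25.3% for Creld2 among those shown that rose, and of -16.4% for Thbs1 to -28.2% for Gbp2 among those that fell.

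Interferon-induced genes fell together. Among the 57 tested members of the interferon-stimulated list 35 were called, each of them lower with del9 (61.4%, against 8.5% of all genes). In all, 54 of the 57 had a negative log2 fold change. The median was -0.15. In 17 of the 57 (29.8%, against 3.47%) every del9 sample lay below every EV sample. Of the 12 tested interferon-inducible GTPases, large GTP-binding proteins that act against intracellular pathogens, 8 fell (66.7%) and all 12 had a negative value, with a median of -0.30. The interferon-stimulated response element, through which interferon acts on its target genes, was searched as TTTCNNTTTC or its reverse complement GAAANNGAAA from 250 bases before to 50 after the start site (RefSeq, GRCm38.p6). It occurred in 10 of 11 GTPase genes with a promoter sequence (90.9%), in 18 of 40 genes of the interferon-stimulated list (45.0%) and in 351 of 9231 tested genes with a promoter (3.8%). In the second list 9 of the 22 called members with a promoter sequence held it. Windows of 60 bases upstream of the start site are given 5′ to 3′ on the strand of the gene for 6 genes that fell, to show where the match lies, with matches in capitals:
Gbp2 (chr3:142620579-142620638, + strand): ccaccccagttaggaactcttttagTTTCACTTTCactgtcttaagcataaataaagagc
Gbp3 (chr3:142559977-142560036, + strand): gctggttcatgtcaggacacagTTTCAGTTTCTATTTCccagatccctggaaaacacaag
Irgm2 (chr11:58214888-58214947, + strand): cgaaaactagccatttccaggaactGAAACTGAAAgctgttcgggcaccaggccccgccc
Oas3 (chr5:120777700-120777759, - strand): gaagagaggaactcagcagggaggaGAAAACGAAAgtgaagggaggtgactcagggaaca
Ifit3 (chr19:34583365-34583424, + strand): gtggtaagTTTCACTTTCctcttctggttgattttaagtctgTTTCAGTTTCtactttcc
Rsad2 (chr12:26456538-26456597, - strand): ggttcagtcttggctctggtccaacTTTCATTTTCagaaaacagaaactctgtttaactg

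Gbp2, a guanylate-binding protein that attacks the membranes around intracellular pathogens, had the smallest p of all genes that fell (GRCm39 chr3:142326349-142343779, + strand). Its normalized counts, brought to a common library size over the 11 samples, were 612, 523, 552, 567 and 513 in the 5 del9 samples and ran from 727 to 825 in the 6 EV samples (median 771). The groups did not overlap, and the log2 fold change was -0.48 ± 0.05 (SE; adjusted p = 1.51e-05), a change of -28.2%. Gbp3, its neighbour, had 1994, 1886, 1997, 1997 and 1868 normalized counts with del9 and 2164 to 2356 with EV (median 2257), again without overlap. It fell by 0.21 ± 0.03 (adjusted p = 0.000282). The immunity-related GTPase Irgm2 fell by 0.24 ± 0.05 (adjusted p = 0.0024), with 332 to 369 normalized counts with del9 and 391 to 432 with EV. Irgm1, a regulator of the same family, changed least among the 8 that fell, by -5.3%: 3249 to 3350 normalized counts with del9 lay below 3403 to 3552 with EV. Reads of close relatives in this family, such as Tgtp1 and Tgtp2 or Gbp2 and Gbp2b, could be shared or discarded in counting, so single values of such pairs are less certain.

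Antiviral effectors of the interferon-stimulated list fell as well. Mx2, a dynamin-like GTPase that traps viral components, had 302, 288, 279, 266 and 290 normalized counts with del9 and 365 to 403 with EV (median 382). The log2 fold change was -0.42 ± 0.05 (adjusted p = 6.89e-05). Oas3, which senses double-stranded RNA and activates RNase L, had 1801, 1663, 1663, 1736 and 1703 with del9 and 1930 to 2218 with EV (median 2135). This was a fall of 0.30 ± 0.03 (adjusted p = 5.84e-05). In both genes the highest del9 sample lay below the lowest EV sample. Ifit3, which binds foreign RNA together with Ifit1, had 1048, 863, 836, 882 and 791 with del9 and 1039 to 1300 with EV (median 1227). Replicate 1 of del9 lay inside the EV range and the other 4 below it, and the fall was 0.43 ± 0.07 (adjusted p = 0.000603). Zbp1, a sensor of Z-form nucleic acids, fell by 0.38 ± 0.05 (adjusted p = 0.000378), and Rsad2, the antiviral enzyme viperin, by 0.36 ± 0.06 (adjusted p = 0.000892). Mx1 had the largest fall of the list at few counts (35.9 ± 7.38 against 49.1 ± 3.69, SD; adjusted p = 0.0252), and the smallest called fall was that of Ly6e, an inhibitor of viral entry (-5.0%, adjusted p = 0.0459). These calls were lost in 4 (Mx1) and 7 (Ly6e) of the 11 fits that leave out 1 sample.

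Of signaling genes in these lists, Stat2 fell by 0.29 ± 0.06 (adjusted p = 0.00258), Irf7, which amplifies type I interferon, by 0.18 ± 0.04 (adjusted p = 0.0036) and Irf9 by 0.10 ± 0.03 (adjusted p = 0.0179). The ubiquitin-like Isg15, an abundant interferon target, had 3112 to 3646 with del9 and 3403 to 3708 with EV. Its log2 fold change of -0.06 did not pass the test (adjusted p = 0.229). Among 19 genes of MHC class I and antigen processing 4 fell: B2m, the light chain of class I molecules (-0.11 ± 0.03, adjusted p = 0.0164), the chaperone Tapbp (-0.15), the peptidase Erap1 (-0.13) and H2-T24 (-0.17). That is 21.1% of the list, against 8.5% of all genes. Of the 17 tested nucleic acid sensors and signaling genes 4 fell (23.5%, against 8.5%). Side by side, and with the same EV samples in both, the median of the interferon-stimulated list was -0.15 with del9 and -0.13 with unmutated gdf6Y, and that of the GTPases -0.30 and -0.18.

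Genes for making ribosomes rose. Of 61 ribosome biogenesis genes 36 were called, each of them higher with del9 (59.0%, against 8.28% of all genes), 60 of 61 had a positive log2 fold change. The median was 0.11. Of 78 cytosolic ribosomal protein genes 49 rose (62.8%), with a median of 0.09. In 29 of them (37.2%, against 4.07%) every del9 sample lay above every EV sample. Ebna1bp2, a nucleolar factor of the large subunit, had 2951, 3123, 3164, 2890 and 3181 normalized counts with del9 and 2517 to 2740 with EV (median 2626), without overlap. It rose by 0.22 ± 0.03 (adjusted p = 0.000284). Rrp9, which belongs to the U3 particle that cuts the rRNA precursor, rose by 0.22 ± 0.04 (adjusted p = 0.00172), Nhp2, a protein of the particles that modify rRNA, by 0.20 ± 0.04 (adjusted p = 0.00193), and Lyar, a nucleolar protein, by 0.18 ± 0.03 (adjusted p = 0.00155). Rplp0, of the ribosomal stalk, had 33922, 34319, 35520, 34527 and 35577 with del9 and 31069 to 32596 with EV (median 31845). This was a change of 9.5% without overlap (adjusted p = 0.000783). Rpl11 rose by 10.8% (adjusted p = 0.000464). Rps14 and Rpl41 rose by 0.18 and 0.15 on the log2 scale. Ribosomal pseudogenes moved with them: Rps18-ps6 rose by 12.3% and Gm15772 by 10.8%, but reads of near-identical copies cannot be told apart from those of their parent genes. With unmutated gdf6Y against the same EV samples, the median of the cytosolic ribosomal protein genes was 0.09. That of the ribosome biogenesis genes was 0.06 with gdf6Y.

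The mitochondrial translation machinery and the replication genes rose by similar amounts. Of 77 mitochondrial ribosomal protein genes 29 rose (37.7%, against 8.28% of all genes, median 0.08). Of 80 nuclear genes of the respiratory chain 18 rose (22.5%, median 0.06). Mrps7, of the small mitochondrial subunit, had 2303, 2278, 2330, 2281 and 2327 normalized counts with del9 and 2014 to 2113 with EV (median 2063), without overlap. It rose by 0.16 ± 0.02 (adjusted p = 0.000341). Mrpl12 rose by 0.17 ± 0.03, Mrps26 by 0.20 ± 0.04 and Mrps24 by 0.16 ± 0.03. Of 48 genes of DNA replication and nucleotide synthesis 23 rose (47.9%; median 0.08). Among them were Dut, which keeps uracil out of DNA (0.14 ± 0.03, adjusted p = 0.00193), Gins2 of the replicative helicase (0.19 ± 0.04, adjusted p = 0.00346) and Rfc2 of the clamp loader (0.13 ± 0.03, adjusted p = 0.00389). Of 57 mitosis genes 3 rose (5.26%, against 8.28% of all genes) and 10 fell (17.5%, against 8.5%), with a median of -0.02. Proteasome subunits (17 of 33 higher, 51.5%, median 0.08) and translation factors (17 of 41 higher, 41.5%, and 2 lower, 4.88%, median 0.07) came next.

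Among replication genes that rose, Mcm5 and Mcm6, subunits of the helicase, hold the E2F site of the cell-cycle factors of that name, searched as TTTCGCGC or TTTGGCGC on both strands. It occurred in 12 of 39 replication genes with a promoter sequence (30.8%), in 4 of the 19 that were called and in 173 of 9231 tested genes (1.87%). In both windows, given with matches in capitals, a pair of matches on opposite strands overlaps:
Mcm5 (chr8:75109332-75109391, + strand): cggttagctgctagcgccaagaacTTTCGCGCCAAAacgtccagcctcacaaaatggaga
Mcm6 (chr1:128359780-128359839, - strand): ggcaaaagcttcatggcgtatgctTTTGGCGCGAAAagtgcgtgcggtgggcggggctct
Mcm5 had 8026, 8665, 8686, 7993 and 9011 normalized counts with del9 and 7398 to 8066 with EV. Replicates 1 and 4 lay inside the EV range and the other 3 above it. Its log2 fold change was 0.14 ± 0.03 (adjusted p = 0.00669). Mcm6 rose by 0.08 ± 0.02 (adjusted p = 0.0236).

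Immediate early genes, which growth factors and stress switch on within minutes, had the highest median (0.11). Of 25 members 8 were higher (32%, against 8.28% of all genes) and 1 lower (4%, against 8.5%). Jund, a subunit of the AP-1 transcription factor, had 3079, 3281, 3468, 3093 and 3362 normalized counts with del9 and 2655 to 2874 with EV (median 2741), without overlap. It rose by 0.24 ± 0.03 (adjusted p = 0.000208). Its partner Fosl1 rose by 0.26 ± 0.05 (adjusted p = 0.00169), Jun by 0.22 ± 0.05 (adjusted p = 0.00516) and Ier2 by 0.25 ± 0.05 (adjusted p = 0.00458). In these 3 genes replicate 1 of del9 lay inside the EV range. Srf (0.13) and Myc (0.12) also rose, and Fosl2 fell by 0.11 ± 0.02 (adjusted p = 0.00334). The list was not uniform: Fos (-0.09, adjusted p = 0.714) and the phosphatase Dusp1 (-0.23, adjusted p = 0.0551) had negative values that did not pass the test.

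The folding machinery of the ER changed in a few members only. Creld2, a secreted ER stress protein, had the smallest p of all genes that rose (GRCm39 chr15:88703795-88710890, + strand). Its normalized counts were 2942, 2789, 2827, 3013 and 2743 with del9 and 2164 to 2430 with EV (median 2291), without overlap. The log2 fold change was 0.33 ± 0.03 (adjusted p = 1.51e-05). Hspa5, the main Hsp70 chaperone of the ER known as BiP, had 48089, 46145, 45585, 46488 and 45781 with del9 and 39472 to 42056 with EV (median 41428). This was a change of 12.9% without overlap (adjusted p = 0.00017). Sdf2l1, a cofactor of BiP, rose by 0.22 ± 0.04 (adjusted p = 0.00175), Manf by 0.14 ± 0.02 (adjusted p = 0.00141) and Herpud1, of ER-associated degradation, by 0.15 ± 0.03 (adjusted p = 0.00601). Of 22 tested genes of ER-associated degradation 2 rose (9.09%) and 2 fell (9.09%), near the 8.28% and 8.5% over all genes. Of 16 sensors and factors of the unfolded protein response 1 rose (6.25%) and 2 fell (12.5%). Of the 32 tested chaperones and folding enzymes 6 rose (18.8%, against 8.28%), with a median of 0.02. The disulfide isomerase Tmx3 fell by 0.10 ± 0.03 (adjusted p = 0.0159), a call lost without del9 replicate 3. Hsp90b1, the Hsp90 of the ER, had 46113, 42326, 41039, 44168 and 42468 with del9 and 39602 to 42100 with EV. The groups overlapped, and it did not pass the test (adjusted p = 0.0667). Unmutated gdf6Y was set beside del9, against the same EV samples, in 1 edgeR fit of all 3 groups. With gdf6Y, Creld2 rose by 0.25 (adjusted p = 2.4e-05) and Hspa5 by 0.14 (adjusted p = 0.000468). Neither passed the test between gdf6Y and del9 (adjusted p = 0.368 and 0.635). The median of the chaperone list was 0.04 with gdf6Y.

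The ER stress response element, which Atf6 reads together with NF-Y, was searched as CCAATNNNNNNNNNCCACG or its reverse complement CGTGGNNNNNNNNNATTGG. It occurred in 8 of 26 genes of the chaperone list with a promoter sequence (30.8%) and in 16 of 9231 tested genes (0.173%). Of the 8 genes, 3 rose (Creld2, Hspa5 and Calr) and 5 were not called (Canx, Dnajc3, Ero1b, Hsp90b1 and Pdia6). The windows of the 3 that rose, whose matches lie 126, 65 and 162 bases before the start site, are given with the match in capitals:
Creld2 (chr15:88819499-88819558, + strand): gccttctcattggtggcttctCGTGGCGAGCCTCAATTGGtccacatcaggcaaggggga
Hspa5 (chr2:34772004-34772063, + strand): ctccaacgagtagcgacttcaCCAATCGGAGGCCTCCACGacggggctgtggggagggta
Calr (chr8:84847055-84847114, - strand): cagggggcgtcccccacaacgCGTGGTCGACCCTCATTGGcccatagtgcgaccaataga
Calr, a lectin chaperone, had the smallest change of the 3, with 36132 to 38078 normalized counts with del9 and 34818 to 36690 with EV. The groups overlapped, and the log2 fold change was 0.06 ± 0.02 (adjusted p = 0.0471). The transcripts of Atf4 (0.02) and Xbp1 (-0.08), factors of the unfolded protein response, did not pass the test. Translation of Atf4 and splicing of Xbp1 were not measured. Of 32 targets of Atf4, the factor of amino acid stress, 8 fell (25%, against 8.5% of all genes). In this list 1 rose (3.1%, against 8.28%), and the median was -0.05. Slc7a11, which imports cystine, fell by 0.27 ± 0.04 (adjusted p = 0.000475) with 782 to 887 normalized counts against 941 to 1060 with EV, and Chac1, which degrades glutathione, by 0.25 ± 0.06 (adjusted p = 0.00807). Ddit3, the stress factor Chop, was the member that rose, by 8.9% (adjusted p = 0.048). This call was lost in 8 of the 11 fits that leave out 1 sample.

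**Figure D2:**
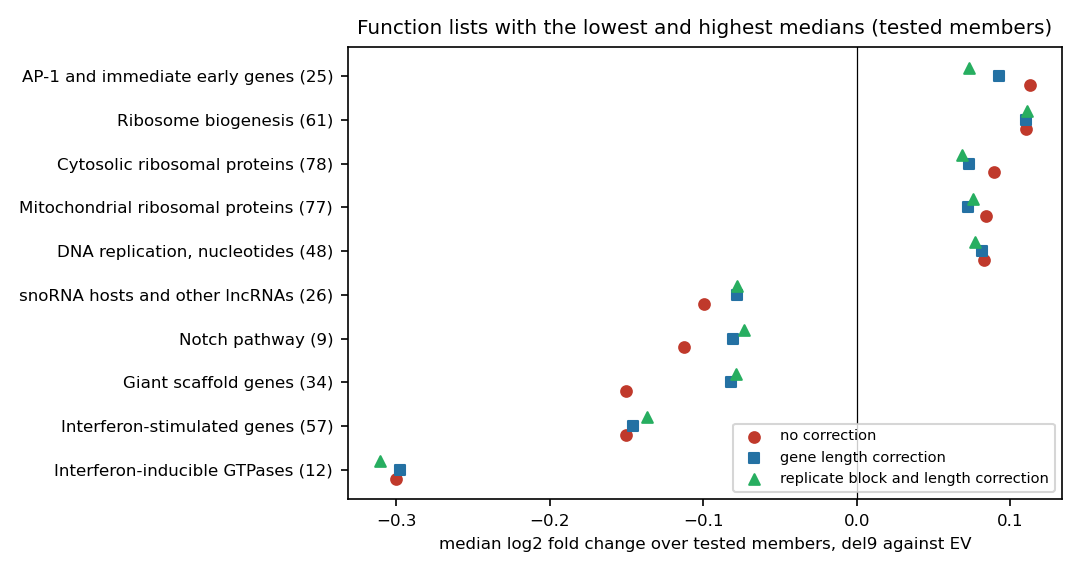
Median log2 fold change, del9 against EV, over the tested members (number in brackets) of the 5 lists with the lowest and the 5 with the highest median, without correction (red circles), with the gene length correction (blue squares) and with the replicate block and the length correction together (green triangles). The GTPases lie at -0.30 without correction and at -0.30 with the length correction, whereas giant scaffold genes move from -0.15 to -0.08.

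BMP targets are the genes through which an active Gdf6 would be read, and with del9 they changed little. Of 15 tested members 3 rose (20%, against 8.28%) and 1 fell, with a median of 0.03; after the length correction described further on, 1 rose and 1 fell, with a median of 0.002. Id1, an inhibitor of helix-loop-helix factors and a direct Smad target, had the largest rise of the 4 called. Its normalized counts were 1156, 1238, 1323, 1237 and 1241 with del9 and 992 to 1094 with EV (median 1037), without overlap. It rose by 0.25 ± 0.04 (adjusted p = 0.000377). Id2 (0.14 ± 0.05, adjusted p = 0.0491) and Msx1 (0.18 ± 0.06, adjusted p = 0.041) also rose, with overlapping groups, and Runx2 fell by 0.17 ± 0.03 (adjusted p = 0.00329). The call of Id2 was lost in 8 of the 11 fits that leave out 1 sample. Id3 (0.03, adjusted p = 0.68), Smad6 (-0.05, adjusted p = 0.669), Smad7 (0.06, adjusted p = 0.254), Smad9 (-0.13, adjusted p = 0.216) and Atoh8 (0.13, adjusted p = 0.491) did not pass the test.

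The same list was read with unmutated gdf6Y. Against the same EV samples, the log2 fold change of Id1 was 0.90 with unmutated gdf6Y, that of Id2 0.84, of Id3 0.72, of Smad9 0.65 and of Atoh8 1.58, and the median of the list was 0.40. In the fit of all 3 groups 68 of 12584 genes (0.54%) differed between gdf6Y and del9. Of the 15 BMP-responsive genes 9 were among them, each higher with gdf6Y. The list was written with earlier results of these data known. Its Id genes, inhibitory Smads and Lxn are among the genes that the paper reports as upregulated by the unmutated insert in this cell line. The overlap is therefore partly built in and is no independent measure of a BMP response. The difference between gdf6Y and del9 was 0.65 for Id1 (adjusted p = 5.92e-11), 0.69 for Id3 (adjusted p = 2.25e-11) and 1.46 for Atoh8 (adjusted p = 4.83e-09). Foxc1, a forkhead factor of mesenchymal cells, fell with del9. It had 2977, 2788, 2447, 2890 and 2614 normalized counts against 3291 to 3731 with EV (median 3395). Its log2 fold change was -0.33 ± 0.04 (adjusted p = 0.000176). With gdf6Y its value was -0.10 (adjusted p = 0.114), and it was higher with gdf6Y than with del9 by 0.23 (adjusted p = 0.00494).

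Matrix and scaffold genes fell, many of them long. Thbs1, a matrix glycoprotein that releases TGF-beta from its latent form, had 28791, 28269, 26542, 27372 and 27105 normalized counts with del9 and 31319 to 34089 with EV (median 33314), without overlap. It fell by 0.26 ± 0.03 (adjusted p = 2.72e-05). Of 30 matrix glycoproteins and proteoglycans 11 fell (36.7%, against 8.5% of all genes, median -0.09). Among them were Thbs2 (-0.19 ± 0.03), Vcan (-0.23 ± 0.03) and Fn1 (-0.14 ± 0.05, adjusted p = 0.0369). The 34 tested giant scaffold genes, which code for plakins, spectrins and other proteins that link membranes to the cytoskeleton, had a median exonic length of 18838.5 bases against 6150.5 over all genes tested. Of these 19 fell (55.9%), all 34 had a negative value, and the median was -0.15. Golgb1, a Golgi tether, had 1656, 1770, 1651, 1639 and 1651 with del9 and 1807 to 2093 with EV (median 1934), without overlap. It fell by 0.22 ± 0.03 (adjusted p = 0.000694). Ahnak2 fell by 0.25 ± 0.04 (adjusted p = 0.00117), Vps13a, a lipid transfer protein, by 0.17 ± 0.03 (adjusted p = 0.00185), and Vps13b by 0.16 ± 0.03 (adjusted p = 0.00259).

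One del9 sample set the spread of this list. The score of the giant scaffold genes, the mean of their log2 normalized expression minus the EV mean, lay between -0.23 and -0.15 in 4 del9 samples. In del9 replicate 2 it lay at 0.05, inside the EV range of -0.06 to 0.09. In Dst, a plakin, that sample had 7847 normalized counts, above the EV range of 6155 to 7510, and the other 4 had 5690 to 6171. The interferon-stimulated score did not share this. It lay between -0.20 and -0.12 in the 5 del9 samples and between -0.09 and 0.05 with EV.

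The remaining lists with low medians rested on few calls. Of 26 snoRNA host and other long noncoding RNAs 4 fell (15.4%; median -0.10): Malat1, a nuclear RNA of splicing speckles, by 0.43 ± 0.06 (4363, 4219, 3751, 3955 and 3708 normalized counts against 4837 to 6235 with EV; adjusted p = 0.000176), Norad by 0.18 ± 0.03 (adjusted p = 0.000584), Neat1, the scaffold of paraspeckles, by 0.41 ± 0.11 (adjusted p = 0.0171) and Dleu2 by 0.26 ± 0.08 (adjusted p = 0.0267). Leaving out 1 sample ended the call of Neat1 without del9 replicate 3 and that of Dleu2 in 4 of 11 fits. Over all 745 long noncoding RNAs tested 51 fell (6.85%) and 3 rose, with a median of -0.08. The share that fell lies below the 8.5% over all genes, and the share that rose (0.40%) lies further below its 8.28%. Of 9 Notch pathway genes 1 fell (11.1%, near the 8.5% over all genes), the nuclear effector Rbpj (-0.11 ± 0.03, adjusted p = 0.00955); the median was -0.11.

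Among called genes with a mean normalized count of at least 100, the largest changes outside these lists rose for Traf1, an adaptor of TNF receptors (125 to 149 normalized counts against 76.9 to 117 with EV; 0.46 ± 0.10, adjusted p = 0.00341), Fst, which binds and inhibits activins (0.43 ± 0.08, adjusted p = 0.00227). Further rises were those of Ass1 of arginine synthesis (0.35 ± 0.07, adjusted p = 0.00224), Ackr3, Pdss1 and Dusp5 (0.35, 0.33 and 0.33), Mettl18 (0.34) and the pseudogene Gm5805 (0.37), whose reads may come from a parent gene. They fell for Klhl24, a ubiquitin ligase adaptor with overlapping groups (-0.55 ± 0.11, adjusted p = 0.00247), Dbp, a transcription factor of the circadian clock (201 to 271 against at least 277; -0.52 ± 0.08, adjusted p = 0.00101), Rxfp1, the relaxin receptor (-0.48 ± 0.13, adjusted p = 0.0164), Trim30d (-0.47 ± 0.08) and the chemokine Cxcl1 (-0.45 ± 0.12, adjusted p = 0.0129). Larger falls at such counts were those of ENSMUSG00000090625, a gene with no symbol in the annotation used, (-1.02 ± 0.29) and of 1810014B01Rik (-0.94 ± 0.29), both with overlapping groups. The call of the former was lost when del9 replicate 3 was left out, and that of the latter in 7 of the 11 fits that leave out 1 sample. Mettl18 lost its call in 3 of these fits and Rxfp1 in 1, without del9 replicate 5. Among the genes with the smallest p, Polr2f, a subunit shared by the RNA polymerases, rose by 0.21 ± 0.03, and Rimoc1 (-0.26 ± 0.03), Resf1 (-0.20 ± 0.02), Arid5b (-0.26 ± 0.03), Nfat5 (-0.25 ± 0.03) and Zfp871 (-0.29 ± 0.04) fell, each without overlap between the groups.

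Gene length moved with the comparison. Genes that rose had a median exonic length of 4745 bases and those that fell one of 9272.5. With the genes cut into 10 bins of equal number by length, 10.7% rose and 2.07% fell in the shortest bin. In the longest bin 1.83% rose and 23.5% fell. Each sample was given a slope of its log2 deviation from the gene mean on log2 exonic length. It averaged 0.008 ± 0.004 (SD, n = 6) per doubling with EV and -0.009 ± 0.008 (SD, n = 5) with del9. The difference was -0.02 (exact permutation test over the 462 ways to draw 5 of 11 samples, two-sided p = 0.013). The slope of del9 replicate 2 was 0.005, inside the EV range, and the other 4 lay between -0.015 and -0.012. GC content moved too: Spearman's rho of the deviations with GC averaged -0.12 with EV and 0.13 with del9 (exact permutation, two-sided p = 0.00866). Whether length, GC content or the insert sets these values cannot be told apart by the design.

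When the smooth trend on gene length was removed from each sample, 1017 genes rose (8.08%) and 772 fell (6.13%). Of the 1043 risen genes 850 (81.5%) kept their call, as did 736 of the 1070 fallen (68.8%), and no call turned. The counts of lower interferon genes stayed at 35 and 8, with medians of -0.15 and -0.30, and that of ribosome biogenesis at 36. Cytosolic ribosomal proteins went from 49 to 38 calls and mitochondrial ones from 29 to 22, DNA replication stayed at 23 and immediate early genes at 8 higher. Giant scaffold genes went from 19 to 7 calls and from -0.15 to -0.08. Chromatin modifiers had 46 tested members of a median length of 14190.5. They went from 19 lower (41.3%, against 8.5% of all genes) to 9 lower (19.6%, against 6.13%) and 2 higher (4.35%, against 8.08%). Vps13b (adjusted p = 0.0581), Rbpj (adjusted p = 0.0636), Neat1 (adjusted p = 0.0643), Dleu2 (adjusted p = 0.114), Id2 (adjusted p = 0.0774) and Ddit3 (adjusted p = 0.0582) lost their call under this correction. GC correction instead gave 1114 higher and 847 lower genes and left the interferon-stimulated list at 33 calls and the GTPases at 6.

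**Figure D3:**
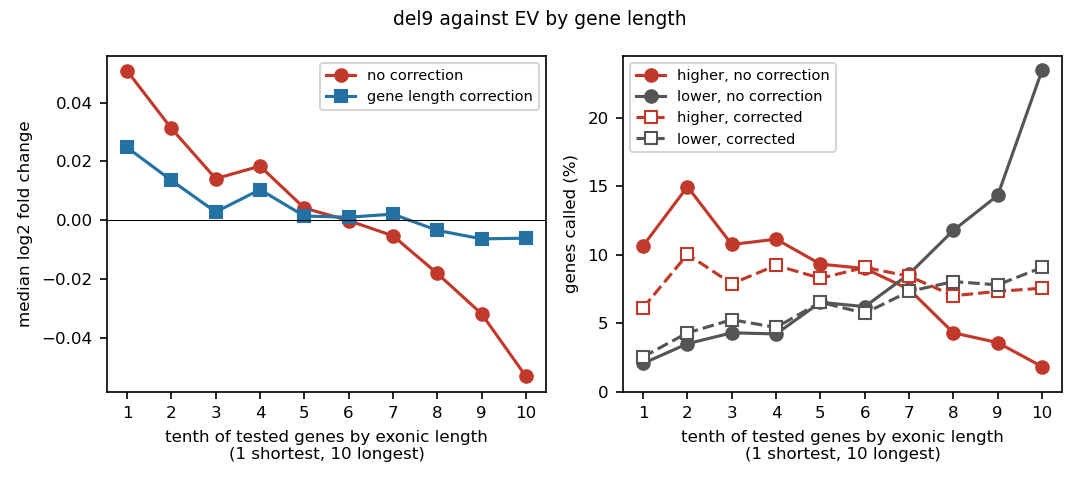
Tested genes in 10 equal bins by exonic length, from the shortest (1) to the longest (10): median log2 fold change, del9 against EV (left), and percentage of genes called higher (red) or lower (grey) (right), without correction (filled, solid) and with the length correction (squares). Without correction the median runs from 0.05 to -0.05 and the share called lower from 2.07% to 23.5%; with it the shares called lower run from 2.55% to 9.08%.

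The labels give both groups the same replicate numbers, without saying what a number marks, and the data did not settle whether they pair the samples. Correlations of the deviations of same-numbered EV and del9 samples from their group means ran from -0.03 to 0.16 over 12590 genes, with 2 of 5 above 0.1, and those of differently numbered samples from -0.19 to 0.16. Over the 10074 genes averaging 100 or more counts, the same-numbered correlations ran from 0.05 to 0.30, with a mean of 0.21, so that a pair under 0.1 remained. There the 5 pairs whose numbers are 3 apart averaged 0.28, and the other 20 differently numbered pairs -0.12. The genes share library and depth, and no test was made. A fit with the number as a block, in which EV replicate 6 has no partner, called 1507 genes higher (12%) and 1547 lower (12.3%), of which 1032 and 1046 were calls of the fit without it. With the block, 46 ribosome biogenesis, 55 cytosolic ribosomal protein and 28 giant scaffold genes were called. Of the interferon lists, 40 interferon-stimulated genes fell and 1 rose, and 10 GTPases fell. Block and length correction together called 1545 higher (12.3%) and 1224 lower (9.72%). Called among these were 15 giant scaffold genes lower, 42 interferon-stimulated genes lower and 1 higher, and 48 ribosome biogenesis genes higher. The scores of both interferon lists were lower in del9 in 5 of 5 same-numbered pairs and those of the ribosomal lists higher in 5 of 5, while the giant scaffold score was lower in 4 of 5.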

How the data were processed

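RNA-seq of TM4 cells was analysed in 6 EV and 5 del9 samples. Per the methods, libraries were made from poly(A)-selected RNA, so counts of long noncoding RNAs such as Malat1 and Neat1 also depend on their capture. Counts were deposited: per the labels and methods, the authors aligned reads to GRCm39 with STAR 2.7.10a, removed PCR duplicates by unique molecular identifiers (UMI-tools) and counted uniquely assigned reads per Ensembl gene by strand with featureCounts 2.0.3, discarding multi-mapping and overlapping reads.

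Here genes averaging 10 or more counts over the 11 samples were tested with edgeR 4.0.16 (quasi-likelihood, TMM, R 4.3.3) at a Benjamini-Hochberg adjusted p of 0.05, with no block. The length and GC corrections subtract a spline with 4 degrees of freedom from each sample. Alternatives used DESeq2 1.42.0, other filters and scalings, the replicate number as a block, and each sample left out. Named genes are the 10 per direction with the smallest p among non-overlapping calls, the 8 per direction with the largest change at a mean normalized count of at least 100, the 4 of each detailed list with the smallest p, the extremes of the ER chaperone, Atf4 and interferon calls, 7 BMP targets and Gdf6; other genes named were chosen after their values were seen. Members, lists and motifs were chosen with earlier results of these data known. Totals were at least 21486850 counts per sample, and counting error is largest for named genes with under 100 counts, such as Mx1 and Hlf. Replicates of a group differed beyond counting error (chi-square per degree of freedom 1.41 to 6.48 over 25 pairs). The fits were tested on simulated data. Some genes that these rules name are not reported here.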

Additional observations from a re-analysis of the deposited data

Results flagged for a closer look

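One sample stood apart from the rest of its group in 11 of 176 groups of values examined, where chance gives about 1 in 20 (8.8 groups), by the gap to the nearest sample as a share of the whole range. In del9 replicate 2 this share was 0.855 for the gene length slope, 0.872 for Golgb1 and 0.719 for the giant scaffold score, each on the high side. In del9 replicate 3 it was 0.712 for the total count, which was the lowest (24608410, the others 25650188 to 26071045), and 0.753 for the mitochondrial ribosomal protein score, which was the highest. Among EV samples it was 0.645 for that score and 0.646 for Mrpl12 (both replicate 3, low), 0.647 for Ahnak2 (replicate 3, high), 0.694 for the Notch score (replicate 2, low), 0.654 for Smad9 (replicate 5, low) and 0.652 for Tmx3 (replicate 6, low).

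Of the named genes 8 differed between unmutated gdf6Y and del9 in the edgeR fit of all 3 groups, each higher with gdf6Y on the log2 scale: Atoh8 by 1.456, Smad9 by 0.7798, Id2 by 0.7042, Id3 by 0.6927, Id1 by 0.6535, Smad6 by 0.5124, Smad7 by 0.3546 and Foxc1 by 0.2288.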

How the results depend on the processing

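No gene called in the comparison was called in the opposite direction under any alternative run. Leaving out 1 sample at a time gave 613 to 1287 genes higher and 610 to 1199 lower, with the lowest counts without del9 replicates 3 (613 and 610) and 5 (672 and 673) and the highest without del9 replicate 1. List medians over these fits ran from 0.0904 to 0.1485 for immediate early genes, the highest without del9 replicate 1, and from -0.3156 to -0.2336 for the GTPases, the weakest without del9 replicate 3. Scaling by total counts gave 863 higher and 1225 lower genes, against 1043 and 1070. The canonical transcript length, which like the edgeR 4 dispersion estimate was chosen after seeing the data, gave 617 lower genes and medians of -0.0488 for giant scaffold and -0.0433 for Notch genes. The replicate block with the length correction gave medians of 0.073 for immediate early and -0.0734 for Notch genes. The causes were not tested. The replicate block alone raised the calls to 1507 and 1547, while 1 of 5 del9 samples correlated best with the EV sample of its number. Over the 5 numbered pairs the difference of the length slopes, del9 minus EV, averaged -0.0184 (exact sign-flip permutation, two-sided p = 0.0625, the smallest that 5 pairs allow). Of 1746 pairs of a named gene and an alternative 1672 kept their side of the threshold and 74 lost the call, Ddit3 and Id2 in 13 each.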

Other observations

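Genes of the circadian clock, a list chosen after its values were seen, were lower with del9 in 9 of the 17 tested members (edgeR, adjusted p below 0.05; 8.5% of all genes fell). The output factors fell for Dbp by 0.52 ± 0.08 (SE; 271, 201, 237, 260 and 207 normalized counts against at least 277 with EV; adjusted p = 0.00101), Hlf by 0.70 ± 0.16 (adjusted p = 0.00554) and Tef by 0.20 ± 0.03 (adjusted p = 0.00118). Among repressors of the loop, Nr1d1 fell by 0.25 ± 0.03 (adjusted p = 0.000282), Per1 by 0.24 ± 0.03 (adjusted p = 0.00026), Nr1d2 by 0.19 ± 0.03 (adjusted p = 0.00111), and Per3 and Cry2 by 0.20 and 0.13. The activators Bmal1 (0.13, adjusted p = 0.0568) and Clock (-0.03, adjusted p = 0.636) did not pass the test. In the fit of all 3 groups Nr1d1 and Tef were higher with unmutated gdf6Y than with del9, by 0.16 (adjusted p = 0.0349) and 0.19 (adjusted p = 0.00671). The labels give 1 time of RNA extraction, 24 h after transfection, and clock phase was not tested.

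Over the 10074 genes averaging 100 or more counts, deviations of EV and del9 samples from their group means had a mean correlation of 0.21 over the 5 pairs of the same number, 0.28 over the 5 pairs whose numbers are 3 apart, and -0.12 over the other 20. For EV and gdf6Y the values were 0.27, 0.24 and -0.13. For gdf6Y and del9 they were 0.29, 0.15 and -0.13, over 5, 4 and 16 pairs. These describe the libraries, which share the genes, and carry no test.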
